A study of Mus musculus with 5 samples.

Results

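The genes described here build and control the mitotic spindle. They are 108 of the 11924 genes measured, chosen by symbol: kinesins (Kif), centromere proteins (Cenp), spindle checkpoint genes (Bub), Aurora A and B (Aurka, Aurkb), Polo-like kinases (Plk), the Ndc80 complex (Ndc80, Nuf2, Spc24, Spc25), the Ska complex, augmin subunits (Haus) and centrosomal proteins (Cep). The cells are labelled SMARTA cells, CD4 T cells with a transgenic receptor, from C57BL/6 mice, with 1 single-cell library per group. The combined library came from mice given both treatments: diphtheria toxin against regulatory T cells (Tregs) on days 0 and 2, and an antibody that blocks CTLA4 on days 0, 2 and 5. What made the hosts' Tregs sensitive to the toxin is not given in the sources used here. The depleted library came from mice given the toxin alone and the antibody library from mice given the antibody alone. The untreated library carries no treatment in its labels, although the protocol speaks of PBS and the series text of an isotype antibody. These 4 libraries were sorted from inguinal lymph nodes that drain the tumor, taken 8 days after its injection, and all 4 hosts therefore carried a tumor, which one protocol names as MC38 and another as PyMG. The naive library held SMARTA cells from spleen.

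During mitosis, chromosomes attach to microtubules at the kinetochore, a protein plate assembled on the centromere, which is marked by the histone variant CENP-A. Aurora and Polo-like kinases drive centrosome maturation, attachment correction and cytokinesis, while the BUB proteins hold the cell in metaphase until all chromosomes are attached. Kinesins are motors along microtubules: some build the spindle or the midzone between the separating chromosomes, and others carry cargo in cells that do not divide. Many genes of mitosis are silent in resting lymphocytes and are switched on together late in the cell cycle, through a promoter element called the cell cycle genes homology region (CHR, letters TTTGAA), often with CCAAT boxes upstream.

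Promoters of 8 members that differed in their timing within the cycle are shown for this element. Each is 110 bases from RefSeq on GRCm38.p6, from 80 bases before the annotated start to 30 after it. Capitals mark TTTGAA and CCAAT on either strand (TTCAAA and ATTGG in reverse). The first 5 are members whose level was higher in the later part of the cycle, and the last 3 are centromere genes whose level was higher in the earlier part.
Cenpf, chr1:189688057-189688166, minus strand: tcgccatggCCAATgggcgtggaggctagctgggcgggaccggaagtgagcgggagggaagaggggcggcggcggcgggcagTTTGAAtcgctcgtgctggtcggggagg
Cenpa, chr5:30666806-30666915, plus strand: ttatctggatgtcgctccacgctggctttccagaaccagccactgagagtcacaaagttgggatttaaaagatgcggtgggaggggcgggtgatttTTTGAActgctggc
Kif23, chr9:61946770-61946879, minus strand: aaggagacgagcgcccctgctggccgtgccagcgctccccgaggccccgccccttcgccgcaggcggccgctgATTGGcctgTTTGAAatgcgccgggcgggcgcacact
Kif20b, chr19:34922278-34922387, plus strand: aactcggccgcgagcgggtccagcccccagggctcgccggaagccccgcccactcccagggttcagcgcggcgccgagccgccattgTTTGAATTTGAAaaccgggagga
Kif4, chrX:100625985-100626094, plus strand: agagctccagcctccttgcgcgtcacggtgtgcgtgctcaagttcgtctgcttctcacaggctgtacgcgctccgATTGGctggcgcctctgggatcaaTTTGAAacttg
Cenps, chr4:149137571-149137680, minus strand: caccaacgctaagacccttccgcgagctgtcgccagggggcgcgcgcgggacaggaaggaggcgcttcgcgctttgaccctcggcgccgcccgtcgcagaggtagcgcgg
Cenpu, chr8:46551989-46552098, plus strand: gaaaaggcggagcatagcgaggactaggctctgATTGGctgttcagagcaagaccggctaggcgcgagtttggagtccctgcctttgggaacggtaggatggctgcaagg
Cenph, chr13:100775870-100775979, minus strand: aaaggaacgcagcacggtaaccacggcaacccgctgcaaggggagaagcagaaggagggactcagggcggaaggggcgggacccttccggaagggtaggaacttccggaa

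In this set the CHR letters lie just after the start in the first 5: they begin 3 bases into the transcript in Cenpf and Kif23, at base 17 in Cenpa, at base 20 in Kif4, and at bases 8 and 14 in Kif20b, where 2 copies abut. They are not in the windows of Cenps, Cenpu and Cenph, which says only that these letters are not there.

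The libraries held 4343 cells (combined), 2186 (depleted), 4566 (antibody), 1099 (untreated) and 7955 (naive), with medians of 2468, 5208.5, 4797, 3133 and 1683 unique molecular identifiers (UMIs) per cell in the same order. All values are UMI counts summed over cells and given as counts scaled to the total of listed UMIs (CPM). Each group is a single library, so there is no replicate and no test between groups: ratios carry exact binomial 95% intervals, and these cover counting error only. Any 2 libraries shared between 0 and 10 cell barcodes. A UMI of the SMARTA receptor genes was seen in 1633 combined, 770 depleted, 3360 antibody, 695 untreated and 2734 naive cells. A Foxp3 UMI, the mark of a Treg, was seen in 1649 cells of the combined and 1284 of the depleted library, against 54 antibody, 16 untreated and 72 naive cells, so the toxin libraries hold many Foxp3-positive cells despite their label. Doublets were not called. Markers foreign to these cells, 2 or more at once, were seen in 143 combined, 256 depleted, 119 antibody, 8 untreated and 145 naive cells, and 71, 144, 41, 1 and 0 of these were cycling in the same order of libraries. The summed level of 8 myeloid markers ranged over the libraries from 238.4 to 386.5 CPM, with 3 of them at 0 in the untreated library. Marker lists of some other cell types varied more. Plasma cell markers (3 genes) summed to 306.3 CPM in the depleted and 69 CPM in the untreated library, where they were highest and lowest, and 8 B cell markers to 84.7 CPM in the antibody and 24.1 CPM in the untreated library, where 5 of the 8 were at 0. Gamma delta T cell markers (4 genes) ran from 86.5 CPM in the depleted to 569 CPM in the naive library, 2 CD8 T cell markers from 38.5 to 128.6 CPM, and the endothelial gene Pecam1 from 67.2 to 295.6 CPM in the same 2 libraries, while 4 NK cell markers stayed at or below 18.2 CPM. The part of such cells in the results was not tested, but values without the cells that carry foreign markers are given at the end.

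Dividing cells were separated from the rest with 8 marker genes, none of them a member (Mki67, Top2a, Birc5, Cdk1, Ccna2, Ccnb2, Ube2c, Nusap1). A cell with UMIs of 4 or more was called cycling. This held for 22.2% of combined cells, 35.6% of depleted cells, 21.7% of antibody cells, 3.28% of untreated cells and 0.0503% of naive cells, the last being 4 cells. Because deeper cells show more markers, the share was also taken after thinning each cell to 1000 UMIs, which gave 12.2%, 16.2%, 7.99%, 1.67% and 0.0128% in the same order. Cycling cells were few in the untreated and naive libraries and many in the treated ones at either depth.

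Members were divided by their mean level in cycling over non-cycling cells of the 4 lymph node libraries: 41 with a ratio of at least 4 are called mitotic here, and the other 67 interphase. The ratio chose the classes, so it is given as a description. Of 67 members above the minimum of 25 CPM and 30 UMIs, 36 were at least 2-fold higher and 1 lower, where 5.76% and 5.44% of all genes above that minimum were. Plk4 at 4.2 and Cep89 at 4.3 were just inside the limit, and Haus4 at 3.7 and Cep72 at 3.1 just outside.

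The ratios differed between role groups, which were assigned gene by gene. All 3 mitotic kinases were above 20: Plk1, the kinase of mitotic entry, had a ratio of 53.2, Aurka, the kinase of the spindle poles, 26.1 and Aurkb, the kinase of the centromere and midzone, 23.3. All 9 outer kinetochore members, from Nuf2 at 45.2 to Ska2 at 4.78, and all 11 kinesins assigned to the spindle and midzone, from Kif2c at 86.8 to Kif15 at 5.83, were mitotic. That count depends on the assignment. Kif2a, a relative of Kif2c, was placed among the other kinesins and was interphase. In the untreated library it had 133.1 CPM in cycling and 107.5 CPM in non-cycling cells. Kif2c, a microtubule depolymerase of the centromere, averaged 79 CPM in cycling cells and 0.91 CPM in non-cycling cells, and its ratio ran from 56.4 in the combined library to 154.2 in the untreated one. Kif14, a kinesin of cytokinesis below the minimum, had a ratio of 76.7, Bub1, a checkpoint kinase, 46.1, and Kif4, a motor on chromosome arms, 42.7.

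Other groups were mixed. The centromere genes divided into 11 mitotic and 7 interphase members, with a median ratio of 5.89. Cenpa itself averaged 896.1 CPM in cycling and 137.8 CPM in non-cycling cells, a ratio of 6.51, whereas Cenpb, which binds a centromeric repeat, had the lowest ratio of the group at 1.15. Bub3, a checkpoint protein that also serves other complexes, stood apart from Bub1 and Bub1b at 1.67 against 46.1 and 28.3. Of 35 centrosomal members only Cep55, known for the last cut of cytokinesis, at 41.6, and Cep89 were mitotic, and 7 of 8 augmin subunits, which branch spindle microtubules, were interphase with ratios between 1.47 and 3.73.

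Several of the lowest ratios belonged to kinesins outside the spindle and midzone group. Kif1b, a transporter of mitochondria and vesicles best known from neurons, averaged 30.1 CPM in cycling cells and 69.8 CPM in non-cycling cells, a ratio of 0.43. Kif21b, which limits microtubule growth in T cells, averaged 74.9 CPM in cycling cells and 139.7 CPM in non-cycling cells, a ratio of 0.54. Kif7, Kif13a, Plk2 and Kif9 were lower still or similar, at 0.31, 0.37, 0.47 and 0.54, but did not reach the minimum. Kif5b, the conventional kinesin heavy chain, had 299.6 CPM in cycling and 309.9 CPM in non-cycling cells, a ratio of 0.97. Cep350 of the centrosome had a ratio of 0.7, and Aurkaip1, a mitochondrial ribosomal protein caught by its name alone, 1.08. Kif24 was the only mitotic member among 15 other kinesins.

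**Figure D1:**
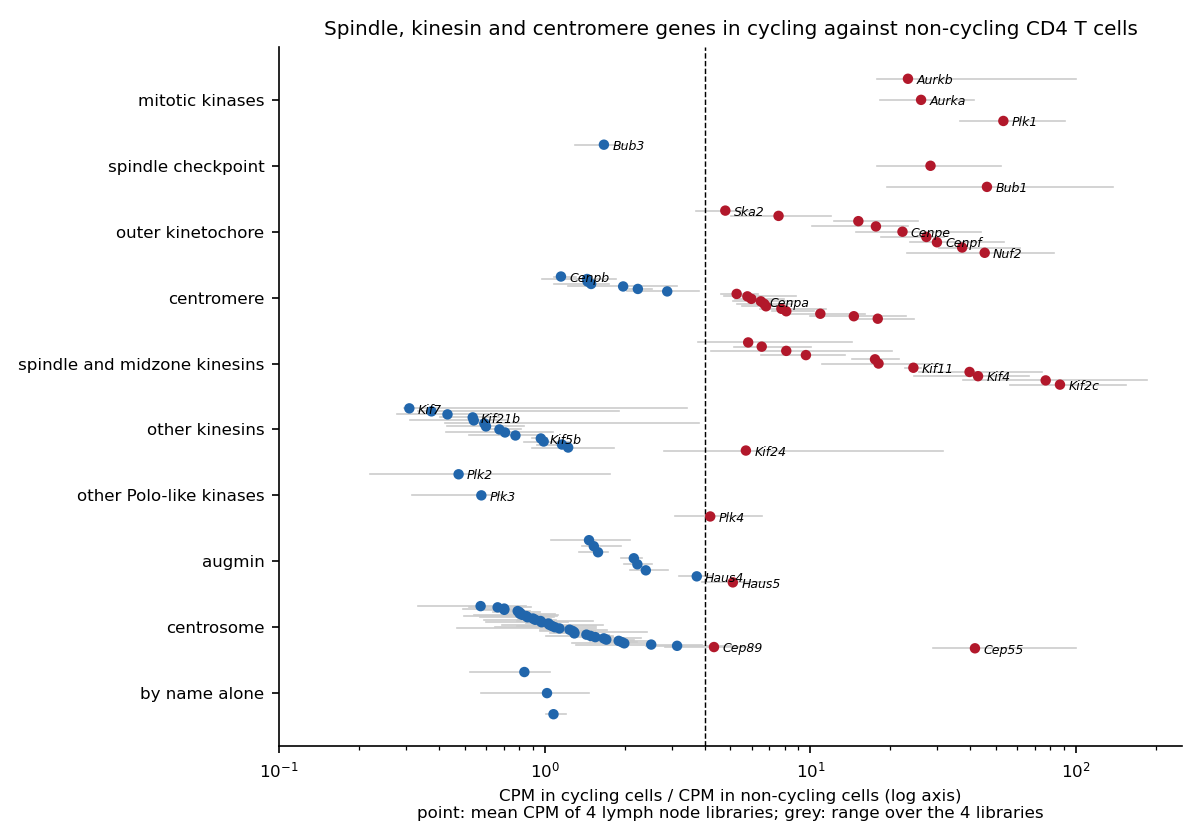
Ratio of the level in cycling cells to that in non-cycling cells for all 108 members, by role. Each point is the ratio of mean CPM over 4 lymph node libraries on a log axis, red from 4 upward (dashed line) and blue below it, with a grey line for the range over the libraries. The groups of mitotic kinases, outer kinetochore, and spindle and midzone kinesins lie entirely right of the line, while most other kinesins and most centrosomal genes lie left of it.

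Genes of the same processes that the symbol rule does not cover followed the same division. Of 17 other kinetochore and checkpoint genes above the minimum, 11 were at least 2-fold higher in cycling cells and 0 lower. Over all genes above the minimum it was 5.76% and 5.44%. The cycling class is itself set by marker genes of dividing cells, so these counts are not independent of that choice. Knl1, the scaffold that recruits the BUB proteins, led with 176.6 CPM in cycling and 5.3 CPM in non-cycling cells, and Mad2l1bp had the lowest ratio, with 55.1 and 57.7 CPM. Among chromosomal passenger and cytokinesis genes 8 of 9 were at least 2-fold higher. Among other spindle and centrosome genes it was 16 of 23, and among condensin and cohesin genes 10 of 19, again with 0 lower. The anaphase promoting complex differed: 5 of 17 were higher, led by its activator Cdc20 with 293.4 CPM in cycling and 11.3 CPM in non-cycling cells, while the subunits Anapc4 and Anapc10 had ratios of 0.95 and 0.99.

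Over whole libraries, mitotic members were several-fold higher in each treated library than in the untreated one. Plk1 stood at 90.5 CPM in the combined library, 109.3 CPM in the depleted library, 59.5 CPM in the antibody library, 10.7 CPM in the untreated library and 1.02 CPM in the naive library. For Aurkb the same libraries gave 134.1, 131.3, 75.3, 10.2 and 0.22 CPM, and for Kif22, a chromokinesin, 94.6, 100.1, 66.9, 7.32 and 5.01 CPM. All 3 genes were highest in the toxin libraries, intermediate with antibody alone and lowest without treatment. Cenpf, an outer kinetochore protein, stood at 230.1, 208.3, 163.4, 38.7 and 2.9 CPM, and Cenpe, a kinetochore motor, at 136.4, 154.5, 137.9, 50.7 and 1.89 CPM.

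In the combined library against the untreated one, 30 of 66 members above the minimum were at least 2-fold higher and 0 lower, where 6.18% and 5.9% of all genes were. The median log2 ratio of the 41 mitotic members was 2.12, against -0.16 over all genes above the minimum, and all 41 ratios were above 1. The 41 were chosen by their level in cycling cells of these same libraries. Their median and direction are therefore not independent of the cycling shares, 22.2% in the combined and 3.28% in the untreated library. Aurkb was 13.2-fold higher (interval 9.6 to 18.6), Kif22 12.9-fold (8.91 to 19.5) and Aurka 10.9-fold (7.43 to 16.8), followed by Plk1 and Ska1. The 5 lowest members were interphase genes, led by Cep164 at 45.1 CPM in the combined and 74.2 CPM in the untreated library, then Kif21b, Cep63, Cep97 and Cep350. The interphase members as a class had a median log2 ratio of -0.06. Of the other pathway genes above the minimum, 8 of 16 kinetochore and checkpoint, 6 of 7 chromosomal passenger and cytokinesis, 11 of 21 spindle and centrosome, 7 of 19 condensin and cohesin and 2 of 17 anaphase promoting complex genes were at least 2-fold higher and 0 lower, as were 17 of 20 S phase and 15 of 16 G2 and mitosis genes.

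Depletion alone gave a like picture. Against the untreated library, 31 of 64 members were at least 2-fold higher and 0 lower, where 6.98% and 12% of all genes were, and the mitotic median was 2.26, with 41 of 41 above 1. Kif22 led at 13.7-fold (9.42 to 20.6), then Aurkb, Aurka, Plk1 and Spc24. Only 1 of the 31 was an interphase gene. With antibody alone, 24 of 63 were at least 2-fold higher and 1 lower (2.65% and 1.32% of all genes), the mitotic median was 1.92, and again 41 of 41 were above 1. The member that was lower was Kif1b, with 33.9 CPM in the antibody and 68.7 CPM in the untreated library (ratio 0.49, interval 0.43 to 0.57). These 3 comparisons share the untreated library, and the choice of the 41 by their level in cycling cells bears on all 3.

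The untreated library was in turn compared with the naive one. The mitotic median log2 ratio was 2.72, and 38 of 41 ratios were above 1, but only 6 mitotic members reached the minimum, and 2 of 44 members were at least 2-fold higher and 0 lower (5.34% and 5.53% of all genes). Those 2 were Cenpe, at 50.7 CPM in the untreated and 1.89 CPM in the naive library, and Cenpw, an inner centromere protein, at 49.7 and 16.7 CPM. The 41 were chosen in cycling cells of lymph node libraries that include the untreated one. Their median and direction are therefore not independent of the cycling shares, 3.28% in the untreated and 0.0503% in the naive library. The count past 2-fold is near the share over all genes, so nothing is read from it about the members. Tissue and tumor exposure cannot be told apart here, since the naive cells came from spleen. Interphase members had a summed level of 3298.3 CPM in the untreated and 3769.7 CPM in the naive library. Kif5b had 334 CPM in the untreated and 512.1 CPM in the naive library, and Kif21b, Kif1b and Cep97 were likewise lower in the untreated library than in the naive one.

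Most mitotic members were found at low levels in naive cells, although only 4 of those cells were cycling: 4 of the 41 had 0 UMIs in the non-cycling ones. Cenpa stood at 129.8 CPM, Kif23 at 35.1 CPM and Ndc80 at 28.6 CPM in non-cycling naive cells, while Bub1, Nuf2 and Aurkb stayed below 0.15 CPM and Kif4 had 0 UMIs. In non-cycling untreated cells Kif23, a motor of the midzone, was lower than in naive ones, with 17.1 against 35.1 CPM (ratio 0.49, interval 0.37 to 0.64).

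When the antibody was added to depletion the mitotic members did not go further up. In the combined over the depleted library 0 of 67 members were at least 2-fold higher and 0 lower, where 1.21% and 0.319% of all genes were. The mitotic median was -0.13, with 9 of 41 ratios above 1, and the interval lay below 1 for 19 mitotic members and above 1 for 2. Of the 67 interphase members it lay below 1 for 10 and above 1 for 24, and it was not counted over all genes. Plk1 had 90.5 CPM in the combined and 109.3 CPM in the depleted library, a ratio of 0.83 (0.77 to 0.89). Against the antibody library, the combined one had 1 of 67 members at least 2-fold higher and 0 lower (4.07% and 3.73% of all genes), a mitotic median of 0.25 and 32 of 41 ratios above 1. In cells with a SMARTA receptor UMI that median was -0.12, with 12 of 41 above 1.

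**Figure D2:**
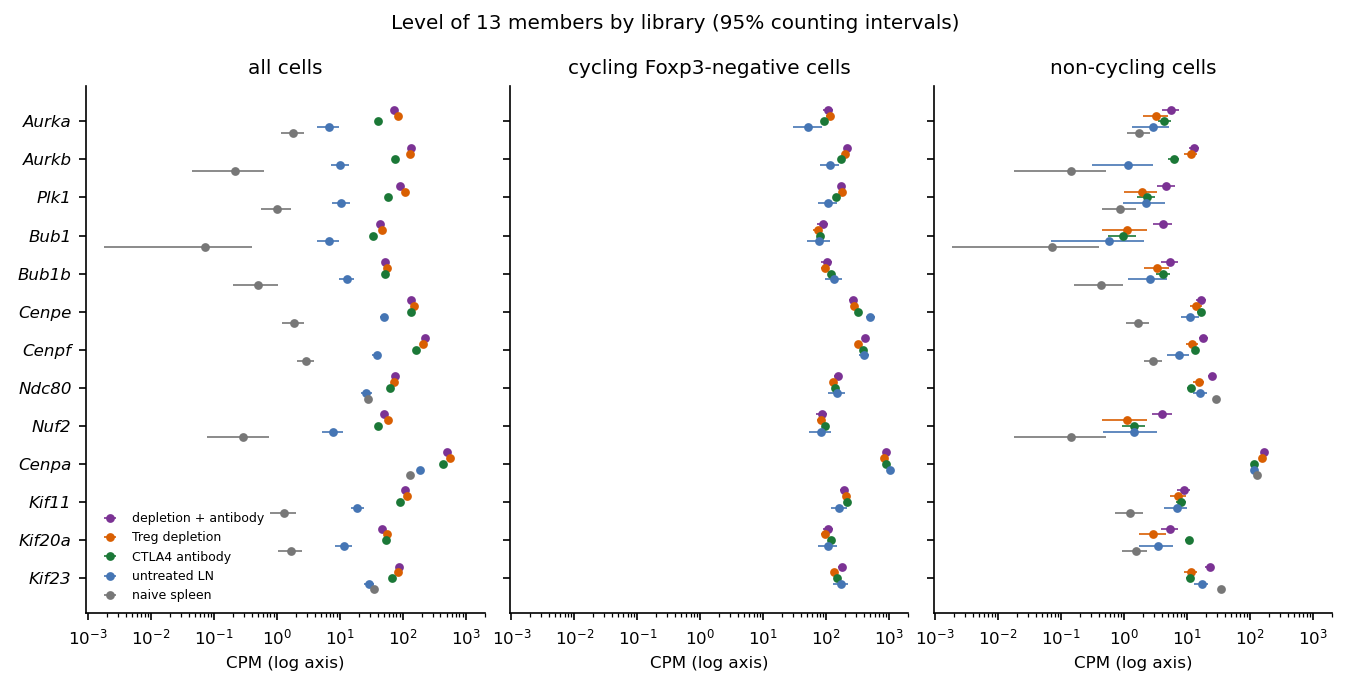
Level of 13 members in CPM on a log axis in all cells, in cycling Foxp3-negative cells and in non-cycling cells. Points are libraries with exact 95% counting intervals: combined (purple), depleted (orange), antibody (green), untreated (blue) and naive (grey; 4 cycling cells, not shown in the middle panel; levels of 0 are not drawn). In all cells the libraries spread over more than 10-fold for genes such as Plk1, with 90.5 CPM in the combined and 1.02 CPM in the naive library, and in the middle panel the 4 lymph node libraries lie close together.

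The differences between whole libraries were much smaller among cycling cells alone. Cells enter this class by their cycling markers, and the mitotic members were chosen by their higher level in it. Similar levels of these members between libraries within the class are therefore not independent of these choices. Cells with a Foxp3 UMI were left out here, although the cells that remained still differed between libraries, as described further on. In cycling Foxp3-negative cells Plk1 stood at 174.3 CPM in the combined library, 175.4 CPM in the depleted, 141.2 CPM in the antibody and 107.1 CPM in the untreated library. For Bub1 these libraries gave 87.6, 73.2, 80.6 and 77.9 CPM. The summed level of all 41 mitotic members was 6002.2, 5645.5, 5816.6 and 5642 CPM in that order, a spread far below that over whole libraries, where it was 3316.2, 3585, 2711.6 and 872.2 CPM.

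Median log2 ratios of the mitotic members fell accordingly close to 0 in these cells. These medians depend on the same choice of cells and members, so nothing is read from their closeness to 0 about the treatments. They were 0.08 in the combined, 0.07 in the depleted and 0.12 in the antibody library over the untreated one, 0.06 in the combined over the depleted and -0.01 in the combined over the antibody library. The untreated library had only 36 cycling cells, all without Foxp3, and gives wide intervals. Against it, 4 of 78 members were at least 2-fold higher and 0 lower in the combined library (5.63% and 8.3% of all genes), 4 and 2 of 77 in the depleted library (4.35% and 8.65%), and 3 and 1 of 77 in the antibody library (1.97% and 3.26%). Between treated libraries it was 0 and 0 of 77 in combined over depleted (1.02% and 0.665%), and 1 and 0 of 79 in combined over antibody (3.24% and 3.02%). With 0 to 4 members in each count, nothing further is read from them.

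Some members nevertheless had intervals that excluded 1 in all 3 treated libraries against the untreated one. Kif22 stood at 169.9 CPM (combined), 163.4 CPM (depleted), 149.1 CPM (antibody) and 58.4 CPM (untreated), and the antibody ratio was 2.55 (1.61 to 4.32). For Aurka these libraries gave 105.3, 114.1, 91 and 51.9 CPM, and for Aurkb 215.9, 200.8, 174.1 and 113.6 CPM. All 3 were higher in each treated library than in the untreated one, as were Spc25, Spc24 and Bub3 with intervals above 1. The comparisons share the untreated cells, with 18 UMIs of Kif22, 16 of Aurka and 35 of Aurkb, so their agreement is not independent. The share of all genes with such intervals was not counted. In the other direction Cenpe stood at 262.9, 270.8, 314.5 and 499.9 CPM, with a ratio of 0.53 (0.43 to 0.64) in the combined library. The late share, defined further on, was also taken in these cycling Foxp3-negative cells. It was 52.9% in the combined, 44.4% in the depleted, 43.5% in the antibody and 55.6% in the untreated library. Its part in these differences was not tested.

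**Figure D3:**
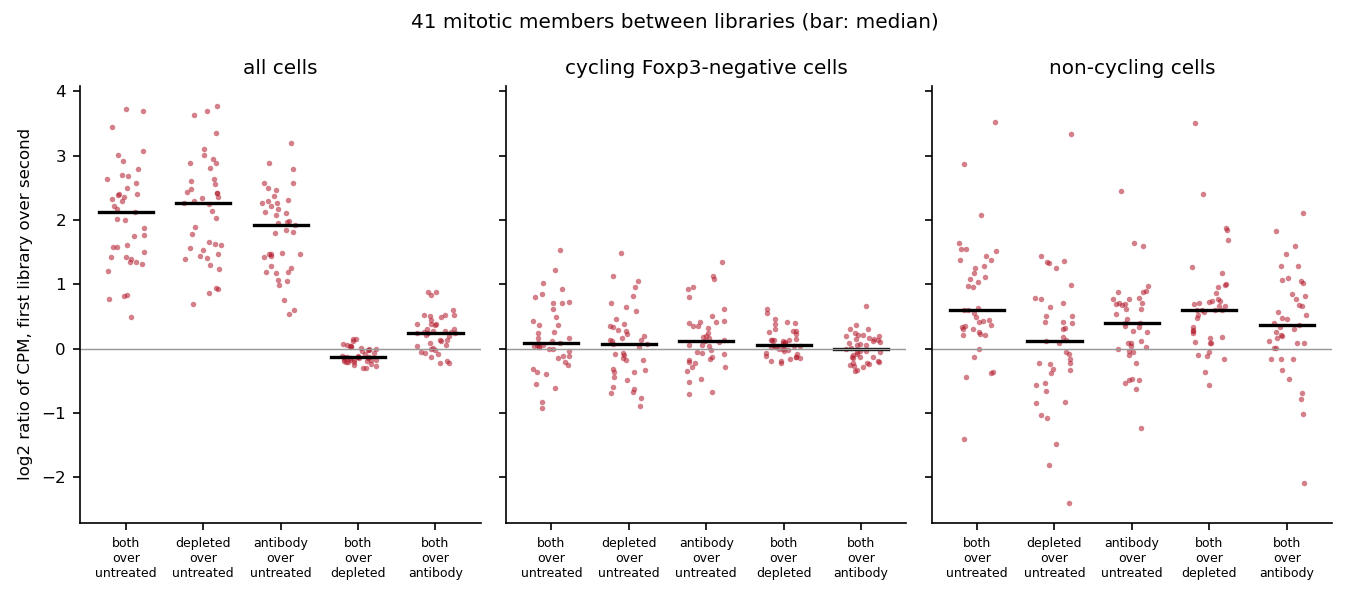
Log2 ratios of the 41 mitotic members for 5 pairs of libraries, in all cells, cycling Foxp3-negative cells and non-cycling cells. Each point is a member, the first-named library over the second (both: the combined library), and the black bar is the median. Medians over the untreated library are 2.12, 2.26 and 1.92 in all cells and 0.08, 0.07 and 0.12 in cycling Foxp3-negative cells.

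Cenpv set the toxin libraries apart in every class of cells. CENPV, a centromere protein first described for its part in centromere organisation, was an interphase member here. Its level was 77.3 CPM in the combined, 64.1 CPM in the depleted, 31.8 CPM in the antibody, 19.9 CPM in the untreated and 7.99 CPM in the naive library. In cycling Foxp3-negative cells it was 87.6 CPM in the combined and 65.9 CPM in the depleted library, against 38.2 CPM in the antibody and 19.5 CPM in the untreated one. In non-cycling cells it was 66.3, 41.9, 26.8, 19.9 and 8 CPM in the order first given. The combined over antibody ratio in all cells was 2.43 (2.23 to 2.65), and Cenpv is the member counted as past 2-fold there. The gene lies at chr11:62524946-62539261 (GRCm38, GENCODE M21).

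Cenpw was likewise highest in the toxin libraries. Cycling Foxp3-negative cells had 378.8 CPM of it in the combined, 369.4 CPM in the depleted, 240.6 CPM in the antibody and 269.4 CPM in the untreated library. The combined over antibody ratio was 1.57 (1.42 to 1.74). Cep112, a centrosomal gene below the minimum, stood at 12.3 CPM in the combined, 2.42 CPM in the depleted, 0.25 CPM in the antibody and 0.58 CPM in the naive library, and at 0 UMIs in the untreated one. Among the Foxp3-negative cycling cells, 46.6% in the combined and 30.2% in the depleted library had a UMI of Il2ra, a receptor chain typical of Tregs, against 2.46% in the antibody and 11.1% in the untreated library. A transgenic receptor UMI was seen in 30.3%, 62.7%, 83.1% and 77.8% of them in the same order, so the cells compared differ in more than the treatment.

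The class called non-cycling still includes cells with up to 3 of the 8 cycling markers: 132 combined, 127 depleted, 202 antibody, 10 untreated and 1 naive cell had 3, and their part was not tested. The mitotic median was 0.60 in the combined, 0.12 in the depleted and 0.40 in the antibody library over the untreated one, and 1.16 in the untreated over the naive one (38 members with a ratio), with wide intervals at these low counts. Past 2-fold over the untreated library were 2 members higher and 0 lower of 40 in the combined (4.03% and 2.44% of all genes), 2 and 0 of 37 in the depleted (4.42% and 4.65%) and 0 and 0 of 40 in the antibody library (0.723% and 0.512%). In the untreated over the naive library it was 0 and 2 of 39 (4.91% and 5.19%), and in the combined over the depleted one 1 and 0 of 35 (2.23% and 0.669%), with a mitotic median of 0.60. Kif15, a spindle kinesin, stood at 11.2 CPM in the combined and 16.5 CPM in the depleted library. It had 47.8 CPM in the antibody, 29.6 CPM in the untreated and 1.09 CPM in the naive one. It was not alone in direction: in the combined over the antibody library 9 of 41 mitotic ratios were below 1, 5 of them with intervals below 1. The combined over antibody ratio was 0.23 (0.19 to 0.29), and in this comparison 2 members of 40 were higher and 1 lower (4.6% and 2.88%). In cycling Foxp3-negative cells the same gene had 175.2 CPM in the combined and 181.1 CPM in the antibody library.

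Foxp3-positive and Foxp3-negative cells were compared within the depleted and the combined library, where both kinds were cycling in number. A UMI of the SMARTA receptor was seen in 20.7% of Foxp3-positive cycling cells in the combined and 21.7% in the depleted library, against 30.3% and 62.7% of Foxp3-negative ones, so it is uncertain how many of the Foxp3-positive cells are SMARTA cells. More Foxp3-positive cells were cycling: 47.7% against 6.61% of Foxp3-negative cells in the combined library, and 47.4% against 18.7% in the depleted one. After thinning it was 24.7% against 3.65% in the combined and 21.3% against 8.76% in the depleted library. The groups held 787 Foxp3-positive and 178 Foxp3-negative cycling cells in the combined library, with medians of 8248 and 4746 UMIs, and 609 and 169 in the depleted one, with medians of 11717 and 9333 UMIs. A cell called negative may have lost its Foxp3 UMI to low depth, and free Foxp3 RNA can put a UMI in a cell that makes none. Of naive cells, 72 of 7955 had a Foxp3 UMI.

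Once cycling, the 2 kinds of cell gave nearly the same share of their listed UMIs to these genes. This is a share and not an amount per cell, since Foxp3-positive cycling cells had more UMIs. Both kinds of cell were called cycling by the same markers, and the mitotic members were chosen by their level in cycling cells. The likeness is therefore not independent of these choices. Summed over the 41 mitotic members, Foxp3-positive cycling cells had 5778.1 CPM and Foxp3-negative ones 6002.2 CPM in the combined library, and 5427.8 against 5645.5 CPM in the depleted one. The median log2 ratio was -0.05 in the combined and -0.06 in the depleted library. No member differed 2-fold, of 77 and 76 tested: 0 were higher and 0 lower, where 0.674% and 1.97% of all genes were in the combined and 1.74% and 2.72% in the depleted library. Few genes of any kind were past 2-fold here, so nothing about the members is read from these counts.

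Smaller differences exceeded counting error for some members. Aurka was higher in Foxp3-positive cycling cells, with 143.6 CPM against 105.3 CPM in Foxp3-negative ones in the combined library (ratio 1.36, interval 1.13 to 1.66) and 138.8 against 114.1 CPM in the depleted library (1.22, 1.05 to 1.41). Aurkb had 251.9 against 215.9 CPM in the combined library (1.17, 1.02 to 1.34), and in the depleted library 206.5 against 200.8 CPM. Ndc80 was lower in Foxp3-positive cells, with 118.8 against 154.9 CPM (0.77, 0.65 to 0.91) in the combined and 102.8 against 128.7 CPM (0.8, 0.69 to 0.92) in the depleted library. Aurka and Ndc80, the main coupler of kinetochores to microtubules, thus lay on opposite sides of 1 in both libraries.

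Several centromere and centrosome genes were lower in Foxp3-positive cycling cells. These role groups make up 18 and 35 of the 108 members, so nothing is read from this about the groups. Cenpx, of the inner kinetochore and the DNA repair machinery, had 213.4 against 265.5 CPM in Foxp3-negative cells in the combined library (0.8, 0.71 to 0.91) and 215.9 against 278.6 CPM in the depleted one (0.77, 0.7 to 0.86). Cep44, a centriole protein, had 23.7 against 38.9 CPM in the combined library (0.61, 0.44 to 0.87) and 19.5 against 32.7 CPM in the depleted one (0.6, 0.44 to 0.81). Cep128 had 26.5 against 47.8 CPM (0.55, 0.41 to 0.76) and 25 against 37.9 CPM (0.66, 0.5 to 0.87) in the same order of libraries. Kif4 had 82.1 against 123.9 CPM (0.66, 0.55 to 0.8) in the combined library, and in the depleted one 81.8 against 90.3 CPM. Cenpa had 833.1 against 899.2 CPM (0.93, 0.87 to 0.99) in the combined library, and in the depleted one 820.4 against 826.5 CPM. Plk1, Bub1, Cenpf, Kif11 and Nuf2 had intervals that included 1 in both libraries.

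**Figure D4:**
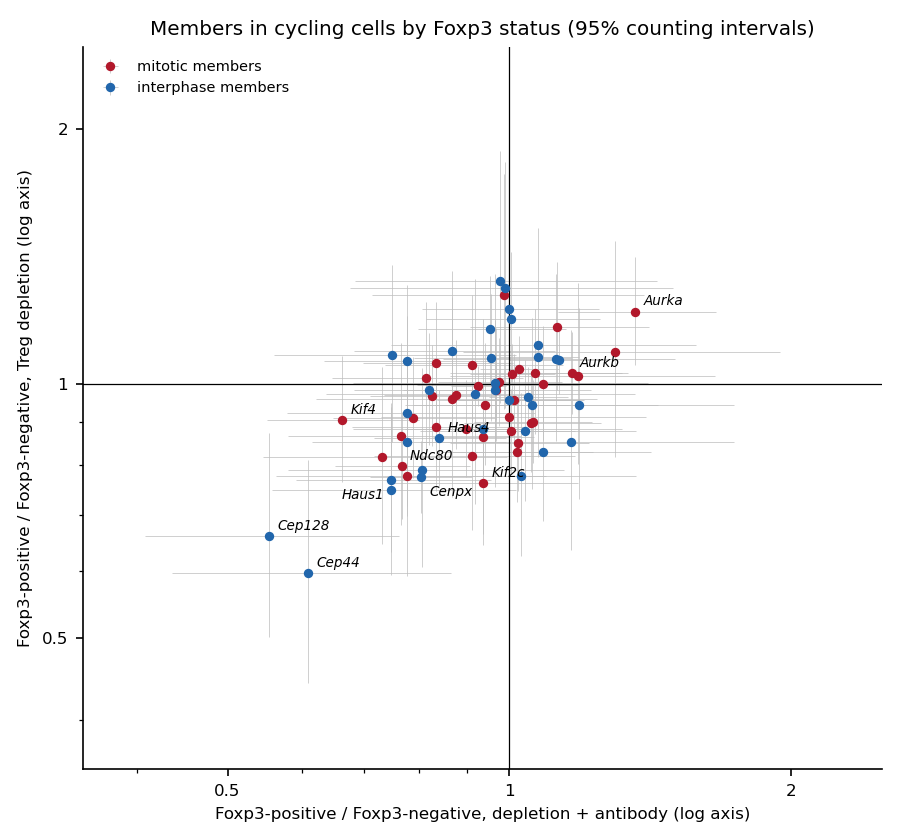
Ratio of CPM in Foxp3-positive to Foxp3-negative cycling cells for members above the minimum in both libraries, in the combined library (x) and the depleted library (y), on log axes with exact 95% counting intervals. Red points are mitotic members and blue points interphase members. Most lie around 1 in both directions, Aurka lies up and to the right at 1.36 and 1.22, and Cep44 and Cep128 lie down and to the left.

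Among cells not called cycling, some members also differed by Foxp3. Kif1b had 44.1 CPM in Foxp3-positive and 127.9 CPM in Foxp3-negative non-cycling cells of the combined library (ratio 0.34, interval 0.28 to 0.42). In the depleted library it had 36.3 and 105.7 CPM (0.34, 0.28 to 0.43). Cep97, which restrains cilium formation, was also lower, with 33 against 78.5 CPM in the combined and 27.7 against 47.3 CPM in the depleted library. Plk3, a stress-responsive Polo-like kinase, was higher, with 44.1 against 22.6 CPM in the combined and 62.1 against 39.4 CPM in the depleted library. Past 2-fold were 2 higher and 5 lower of 39 members in the combined library (5.19% and 9.18% of all genes), and 0 and 1 of 32 in the depleted one (4.34% and 5.27%). With so few members in each count and such shares over all genes, nothing is read from them about the members as a set.

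Within the cycle, members separated by stage. Cycling cells were called late where their UMIs of a list of 18 G2 and mitosis genes exceeded those of a list of 21 S phase genes, and early where they were fewer, with no member in either list. Late cells held 473 of 953 in the combined, 336 of 768 in the depleted, 430 of 984 in the antibody and 20 of 36 in the untreated library. On the mean over these 4 libraries, 13 of 77 members were at least 2-fold higher in late cells and 5 lower, where 2.51% and 2.75% of all genes were. The mitotic median was 0.80 in the combined, 0.72 in the depleted and 0.74 in the antibody library. Single libraries gave 12 higher and 0 lower of 76 in the combined (1.94% and 1.04% of all genes), 13 and 1 of 76 in the depleted (1.24% and 1.1%), and 22 and 3 of 79 in the antibody library (2.45% and 3.49%).

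Cenpf was the latest member. It had 725.5 CPM in late and 169.2 CPM in early cells of the combined library (ratio 4.29, interval 3.96 to 4.65), 635.7 and 139.3 CPM in the depleted library, and 792.1 and 121.8 CPM in the antibody library. Cenpa had 1238.4 and 496.8 CPM in the combined library (2.49, 2.37 to 2.62) and 1689.5 and 381.3 CPM in the antibody library (4.43, 4.24 to 4.63). Cenpe, Kif2c, Cep55, Plk1 and Aurka were likewise at least 2-fold higher in late cells of these 3 libraries. In all, 10 of the 41 mitotic members were, including Kif20a and Kif22.

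Several inner centromere genes ran the other way. Cenps had 66.1 CPM in late and 130.4 CPM in early cells of the combined library (0.51, 0.44 to 0.59), 57.1 and 142.3 CPM in the depleted library, and 52.5 and 168.2 CPM in the antibody library (0.31, 0.27 to 0.36). Cenph had ratios of 0.68, 0.64 and 0.44 and Cenpk of 0.63, 0.65 and 0.59 in the same order of libraries. These genes of the constitutive centromere network were thus higher in S-leaning cells, although Cenpa, the histone they bind beside, was higher in G2M-leaning ones. Aurkb lay between, with late over early ratios of 1.92, 1.64 and 1.49, and Plk4, the kinase of centriole duplication, had intervals that included 1 in all 3 libraries.

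**Figure D5:**
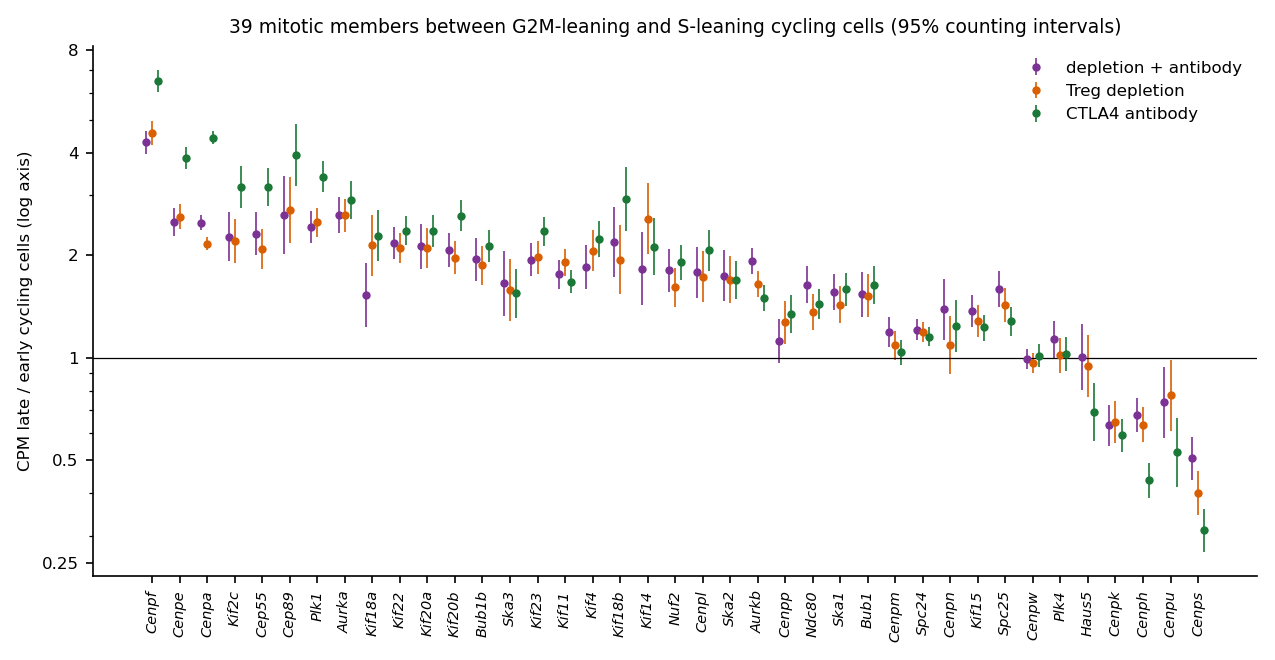
CPM in late over early cycling cells on a log axis for 39 mitotic members above the minimum, ordered by the mean over 4 libraries. Points with exact 95% counting intervals are the combined (purple), depleted (orange) and antibody (green) libraries. Cenpf is at the left, with ratios of 4.29, 4.56 and 6.5, and Cenps at the right, with 0.51, 0.4 and 0.31.

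The promoter letters shown at the start were then counted over all RefSeq promoter windows of 300 bases (250 before to 50 after a start, GRCm38.p6, both strands, a gene counted once if any of its windows held the motif). Windows were found for 37 of the 41 mitotic and 56 of the 67 interphase members. TTTGAA was in 22 of the 37 mitotic members (59.5%), 8 of the 56 interphase members (14.3%) and 20.2% of all 27025 genes. Within the stretch from 30 bases before the start onward it was in 18 mitotic members (48.6%), 4 interphase members (7.14%) and 4.45% of all genes. CCAAT was in 25 mitotic members (67.6%), 24 interphase members (42.9%) and 41.1% of all genes, and both motifs in 16 (43.2%), 4 (7.14%) and 7.97%.

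Of the 10 late members, 9 had a window and 8 of these held TTTGAA, which Cenpe alone lacked, against 14 of the 28 other mitotic members with a window. The letters begin at base 31 of the transcript in Plk1, at base 33 in Aurka and at base 25 in Spc25. They were not found in the windows of Bub1, Nuf2, Cenpk or Plk4. A match describes the letters and does not show that a factor binds there.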

How the data were processed

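The authors deposited 1 table per library with raw UMI counts for each gene in each cell; per the submitters' processing notes they used bcl2fastq 2.20, Cell Ranger 6.0.0 with mm10, R 4.1.1 and Seurat 4.0.4. Per the labels' protocols, CD4+CD45.1+ SMARTA cells were isolated with a cell sorter and run on a 10x droplet assay of 3′ transcript ends. The tables list 11924 genes, so CPM are relative to the listed UMIs alone, and no column of another sample was present (0). All 20149 cells were kept, and no doublets were removed.

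Counts were summed per library and cell class and divided by the class's total to CPM. Ratios carry exact conditional binomial (Clopper-Pearson) 95% intervals, levels exact Poisson and shares exact binomial ones. PCR and sorting add error that these do not cover. A count of 0 was set to 3 for ratios, and no ratio was given where the other count was also 3 or fewer, which left out 3 mitotic members in untreated over naive non-cycling cells. Medians run over the 41 mitotic members with no minimum, and counts of members past 2-fold over genes that reached 30 UMIs in the pair and averaged 25 CPM or more. No test between groups was made, since each group is 1 library. On simulated Poisson counts of 6261 to 6814 genes per comparison, 100% of the 200 genes changed 3-fold were called, and between 95.19% and 95.7% of intervals held the true ratio.

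The members, the gene lists, the classes and the alternatives were chosen with earlier results of these data known. Named members follow a rule: the highest level per role, the 6 highest and 6 lowest cycling ratios, the 5 highest and 5 lowest per comparison by the interval bound nearest 1, the same for late over early cells, and 13 genes named throughout. From these the text takes those it describes. Cep112, the 8 promoters shown and the other members named with their motifs were chosen after their values were seen. The lists other than the members are kinetochore and checkpoint, chromosomal passenger and cytokinesis, spindle and centrosome, anaphase promoting complex, condensin and cohesin, S phase, and G2 and mitosis; some genes stand in more than 1.

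All 108 members were found in GENCODE M21 (GRCm38). Of the 31-base words in the last 300 bases of their transcripts, 33 members shared some with another gene, most of all Ska2 with 20.2%, so that its count is the least certain. The counting strand is not given in the sources used here. Computation used Python 3.11.15, numpy 2.4.6, scipy 1.17.1, pandas 2.3.3 and edgeR 4.0.16 (TMM factors, an alternative). Other alternatives were the minimum level, the mean over single cells, the number of cycling markers, thinning, the class limit, and leaving out cells by depth, foreign markers, Foxp3 or receptor.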

Additional observations from a re-analysis of the deposited data

Results flagged for a closer look

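The antibody was compared with no antibody in 2 settings that share no library, and over all cells the effects had opposite signs. The median log2 ratio of the mitotic members was 1.92 in the antibody over the untreated library, without toxin, and -0.13 in the combined over the depleted library, with toxin. The share of cycling cells was 21.7% in the antibody and 3.28% in the untreated library, whereas it was 22.2% in the combined and 35.6% in the depleted library. Among Foxp3-negative cells it was 21.6% in the antibody and 3.32% in the untreated library, and 6.61% in the combined and 18.7% in the depleted one. Of the 41 mitotic members, 19 had an interval above 1 in the first comparison and below 1 in the second, and 2 had it above 1 in both. The same was not counted over all genes, so it is open whether this number is unusual. The medians did not have opposite signs within cycling Foxp3-negative cells or within non-cycling cells. These classes are set by the cycling markers, so they cannot show a difference in cycling share. That share ran in opposite directions among Foxp3-negative cells too. In cycling Foxp3-negative cells the median was 0.12 in the antibody over the untreated library and 0.06 in the combined over the depleted one, with 27 of 41 ratios above 1 in the second, and in non-cycling cells it was 0.40 and 0.60, with 35 of 41 above 1 in the second. With 1 library per group the difference between the 2 effects was not tested.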

How the results depend on the processing

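Of 272 values recomputed, 182 were labelled the same and 90 moved further. A count was the same within 1.5-fold, and a share within its counting interval. A median was the same between the medians of the members' lower and upper bounds, a band as wide as the interval of a typical member. It is not the counting error of the median. A change of sign was labelled only for medians of at least 1 in size, with 0 found, and smaller medians that changed sign are given below. The limits are 1 library per group, 36 cycling cells in the untreated library, 4 in the naive one, and counts near 0 for many members in non-cycling cells. No paired analysis was possible because each group is 1 library. Leaving out replicates was not possible for the same reason. Counts below are members at least 2-fold higher or lower in all, in the order untreated over naive, antibody over untreated, depleted over untreated, combined over untreated, combined over depleted, combined over antibody, as far as they moved.

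In all cells, no minimum gave 34 (untreated over naive), 43 (antibody over untreated), 3 (combined over depleted) and 5 (combined over antibody). A minimum of 100 CPM gave 0, 2, 5, 4 and 0 (untreated over naive, antibody, depleted and combined over untreated, combined over antibody). The mean CPM of single cells gave 1, 8, 18, 14 and 2 for the same 5, with mitotic medians of 1.67 (untreated over naive) and -0.32 (combined over depleted). Without the 5% of cells with most UMIs there were 0 (untreated over naive) and 2 (combined over antibody), with medians of 1.66 (untreated over naive), 2.89 (depleted over untreated), 2.52 (combined over untreated) and -0.28 (combined over depleted). Cells with a receptor UMI gave 1 (combined over depleted) and 2 (combined over antibody), and there the combined over antibody median turned to -0.12, against 0.25. Non-cycling cells, added after the data had been seen, gave 0, 2, 2, 1 and 3 from antibody over untreated onward, and medians of 1.16, 0.40, 0.12, 0.60, 0.60 and 0.37 in the order first given, so that combined over depleted turned from below 0 to above it. TMM factors moved all log2 ratios of depleted over untreated by 0.31 and of combined over untreated by 0.19.

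In cycling Foxp3-negative cells, in the order antibody, depleted and combined over untreated, combined over depleted, combined over antibody, no minimum gave 14, 10, 10, 5 and 6. A minimum of 100 CPM gave 2, 2, 1 and 0 for all but combined over depleted. Leaving out the deepest cells gave 16, 17, 12 and 1 for the first 4, and thinning to 1000 UMIs gave 10, 10 and 12 over untreated and 8 for combined over antibody. The mean over single cells gave 7 for combined over untreated and 2 for combined over antibody, and TMM factors 7 for combined over untreated.

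For Foxp3-positive over Foxp3-negative cycling cells, no minimum gave 5 in the combined and 4 in the depleted library. In the combined library the mean over single cells gave 2. Leaving out the deepest cells, thinning to 1000 UMIs, thinning to 3000 UMIs, receptor cells and negative cells also without Il2ra gave 1 each there, the last 2 of these added after the data had been seen. Thinning to 1000 UMIs gave 1 in the depleted library. A minimum of 100 CPM left 11 members past 2-fold between late and early cells, and a class limit of 8 left 26 mitotic members, where a limit of 3 changed the number by less than 1.5-fold.

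The share of cycling cells, in the order combined, depleted, antibody, untreated, naive, was 12.2%, 16.2%, 7.99%, 1.67% and 0.0128% after thinning, and 3.65%, 8.76%, 7.91%, 1.7% and 0.0129% after thinning in Foxp3-negative cells, a choice made after the data had been seen. With 3 markers it was 25.3%, 41.4% and 26.2% in the first 3, and with 5 markers 19.8%, 31.8% and 18%. Among receptor cells it was 13.3%, 30.9%, 24.5% in these 3 and 0 in the naive library. Without a Foxp3 UMI it was 6.61% in the combined and 18.7% in the depleted library, and without cells carrying markers of another type 32.9% in the depleted one, the only 1 of 32 values recomputed without such cells that moved. Where a value moved, the cause was not tested.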

Other observations

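Some mitotic members were higher in Foxp3-positive than in Foxp3-negative cells not called cycling, and 1 of them in the combined library alone. Cenpm, an inner kinetochore protein, had 38.2 CPM in Foxp3-positive and 12.9 CPM in Foxp3-negative non-cycling cells of the combined library, a ratio of 2.96 (interval 2.17 to 4.06). Spc24 had 47.2 and 20.5 CPM (2.3, 1.77 to 2.99), and Cenpw 95.1 and 54.7 CPM (1.74, 1.47 to 2.06). In the depleted library Cenpm had 26.8 CPM in Foxp3-positive and 29.4 CPM in Foxp3-negative cells (0.91, 0.67 to 1.24), so its higher level did not recur there. Spc24 had 33.5 and 22.1 CPM and Cenpw 85 and 67.7 CPM in Foxp3-positive and Foxp3-negative cells. Kif20b went the other way in the combined library, with 17 CPM in Foxp3-positive and 35.3 CPM in Foxp3-negative cells. In this comparison 2 of 39 members were at least 2-fold higher and 5 lower in the combined library, where 5.19% and 9.18% of all genes were. These single genes are therefore described without a reading for the members as a set. The class called non-cycling includes cells with up to 3 of the 8 cycling markers, and the part of such cells in these values was not tested.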
